A study of Mus musculus with 4 samples.

Results

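Mediator and Integrator are multi-subunit complexes that act on RNA polymerase II, and the genes described here encode their subunits. Members were the genes whose name, in the authors' annotation of the H3K36me3 peaks, starts with Med or Ints followed by a number. This gave 37 of the 12987 genes that a peak of either library named, 27 Med genes and 10 Ints genes. The peaks came from forebrain of C57BL/6 mouse embryos at embryonic day 13, and the labels give the cell type as neural progenitor cells. One group was wild type (WT) and the other carried H2A.z1cKO, a conditional knockout of the histone variant H2A.z1 that the series describes as specific to the brain. The Cre driver, the cells it reaches and any pooling of embryos are not given in the sources used here. Each genotype had 1 library of chromatin immunoprecipitated with an H3K36me3 antibody and 1 of input DNA, so a difference between genotypes has no replicate check and no test between them was made.

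Mediator carries signals from DNA-bound transcription factors to the polymerase. Its head and middle contact the polymerase, its tail contacts many activators, and a kinase module binds it reversibly. Integrator cleaves nascent RNA, first known from the small nuclear RNAs of the spliceosome, and it ends transcription early at many protein-coding genes. Trimethylation of lysine 36 on histone H3 (H3K36me3) is laid down over the bodies of genes as the polymerase transcribes them.

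The 2 immunoprecipitated libraries held 31984670 (WT) and 32927164 (cKO) tags, but the WT list had 36820 peaks over 13.3 Mb and the cKO list 95750 peaks over 69.1 Mb, a difference present over the whole genome and part of every comparison below. Of 11 progenitor marker genes 6 carried a peak in WT and 8 in cKO, among them Sox2, Pax6 and Nes in both. Of 8 neuronal markers 4 did in each library, so the mark does not separate progenitors from neurons. None of the microglial or mesenchymal markers had a peak in either list, 1 of 4 endothelial markers (Cldn5) had one in both, and 1 erythroid marker (Alas2) had one in cKO. The part of these in the results was not tested. In bulk chromatin, a mark in more cells and more of the mark per cell cannot be told apart.

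Most of the members had a named peak in WT and nearly all in cKO, where peaks took up more of their length. The rule needs a named peak in either list, so the count in cKO is largely fixed by it. A non-intergenic peak bore the member's name for 29 of 37 genes in WT (78.4%, exact Clopper-Pearson 95% interval 61.8 to 90.2, counting error only) and for 36 in cKO. Over all genes that a non-intergenic peak of either list named, the shares were 66.9% in WT and 97.2% in cKO. The exception in cKO was Med26, which had intergenic named peaks alone. Members with a named peak in cKO but not in WT numbered 7, namely Med6, Med11, Med30, Med10, Med21, Med12 and Ints4. That was 18.9% of the members, against 33.1% of all 12573 genes that a non-intergenic peak named. No member had a named peak in WT alone, which 2.8% of all named genes did.

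Summed peak length, the length of all non-intergenic peaks with a gene's name, totalled 45.7 kb in WT and 266.3 kb in cKO for the members. The median was 888 bp in WT over the 29 members with a peak and 4863 bp in cKO over 36. Over all named genes these medians were 858.5 and 3237 bp. Among the 29 members named in both lists, the cKO to WT ratio had a median of 5.95 (quartiles 4.28 and 9.06), and among all 8054 such genes it was 5.48 (3.22 and 9.53). The sum was at least 2 times as long in cKO in 27 of these members, and 89.9% of all such genes did the same. None had a shorter sum in cKO (1.85% of all), and so none was at 0.5 times or less (0.546% of all). The members' ratios thus lay close to those of the rest of the genome.

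The longer sums came with both more and longer peaks. Members had 151 peaks in WT and 379 in cKO, 2.51 times as many, with a mean length of 303 and 703 bp and a median of 261 and 468 bp. Over all named genes there were 2.58 times as many peaks in cKO, with means of 363 and 727 bp and medians of 271 and 439 bp. Peak number was lower in cKO for 3 members, Med8 (4 and 2 peaks), Med25 (7 and 6) and Med13l (27 and 24), although each had the longer sum there. Of all 8054 genes named in both lists 15.7% had fewer peaks in cKO. A total of 27 cKO peaks of the members (7.12%) each overlapped at least 2 WT peaks, close to the 6.46% of cKO peaks over all named genes.

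Coverage, the share of the RefSeq gene body (first to last base of the gene) inside peaks of any name, put genes of different length on 1 scale. A peak lay over the body of 31 members in WT and of all 37 in cKO. The rule itself needs a named peak in 1 of the lists, so these counts are largely fixed by it. Of all protein-coding genes 31.3% and 43.7% had such a peak, and of the 8851 that a peak of either list named, as the rule asks, 65.8% and 88.0%. Median coverage was 5.12% in WT (quartiles 2.92 and 9.36) and 39.9% in cKO (17.3 and 51.6). No member was covered over more than 50% of its body in WT and 10 were in cKO, where 8.0% of all genes and 17.9% of the named coding genes were. Among the 34 members of at least 5 kb, 29 had coverage at least 10 percentage points higher in cKO (32.6% of all such genes and 61.2% of those named by a peak). The rule drew some of these members from cKO peaks alone, so nothing is read from that count. None was that much lower (0.0% of all).

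Members stood closer to the background among genes that carried the mark in WT. Of the members of at least 5 kb with a WT peak over the body, 27 of 29 passed the same 10 points, as did 75.3% of all 6398 such genes. The median difference was 37.1 points for these members (quartiles 19.5 and 42.6) and 22.9 for all (10.1 and 37.0). Median gene length was 19.6 kb over all 37 members and 17.2 kb over all 21883 protein-coding genes. Length was not compared within the genes with a WT peak over the body. Across the members, length and coverage had a rank correlation (Spearman) of -0.24 in WT and -0.11 in cKO, a description over 37 genes that share their libraries. Over all protein-coding genes, with or without a peak, it was 0.17 and 0.18.

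**Figure D1:**
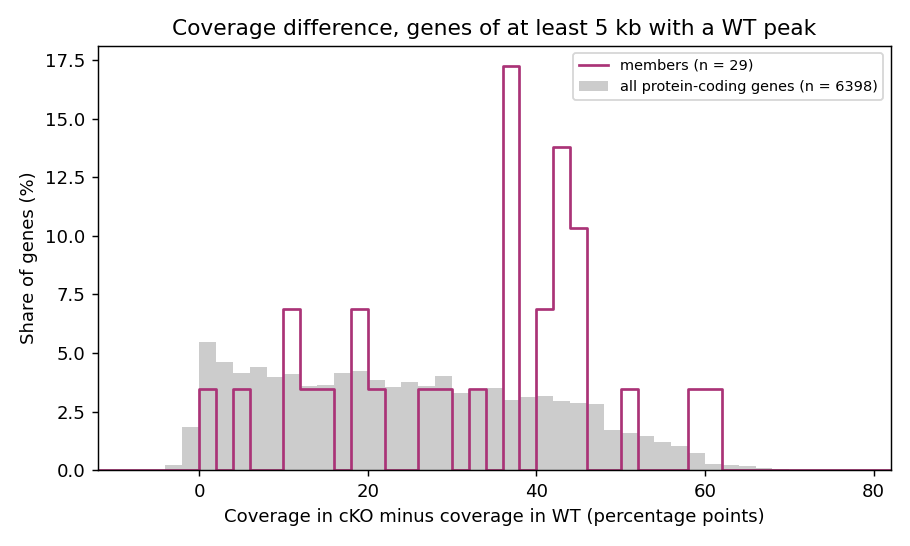
Difference in body coverage (cKO minus WT, percentage points) for genes of at least 5 kb with a WT peak over the body, as the share of genes per bin of 2 points. Grey bars are all 6398 protein-coding genes and the line is the 29 members, whose median lies at 37.1 points against 22.9.

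These differences depend on how much of the cKO list is used. When the cKO list was reduced to its strongest peaks, by the authors' -log10 p-value, until it covered as many bases as the WT list, 13 of the 29 members named in WT kept a cKO peak (37.1% of all genes named in WT), and 19 had the shorter sum in cKO (73.5% of all). When it was instead shortened to as many peaks as WT had, 27 of 29 kept a cKO peak (87.1% of all) and 2 had the shorter sum there (15.9% of all). The members' share of all named peak length was 0.350% in WT, 0.394% in cKO, 0.406% at equal peak number and 0.263% at equal covered length. The direction of the members' difference thus turned with the length of list kept.

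**Figure D2:**
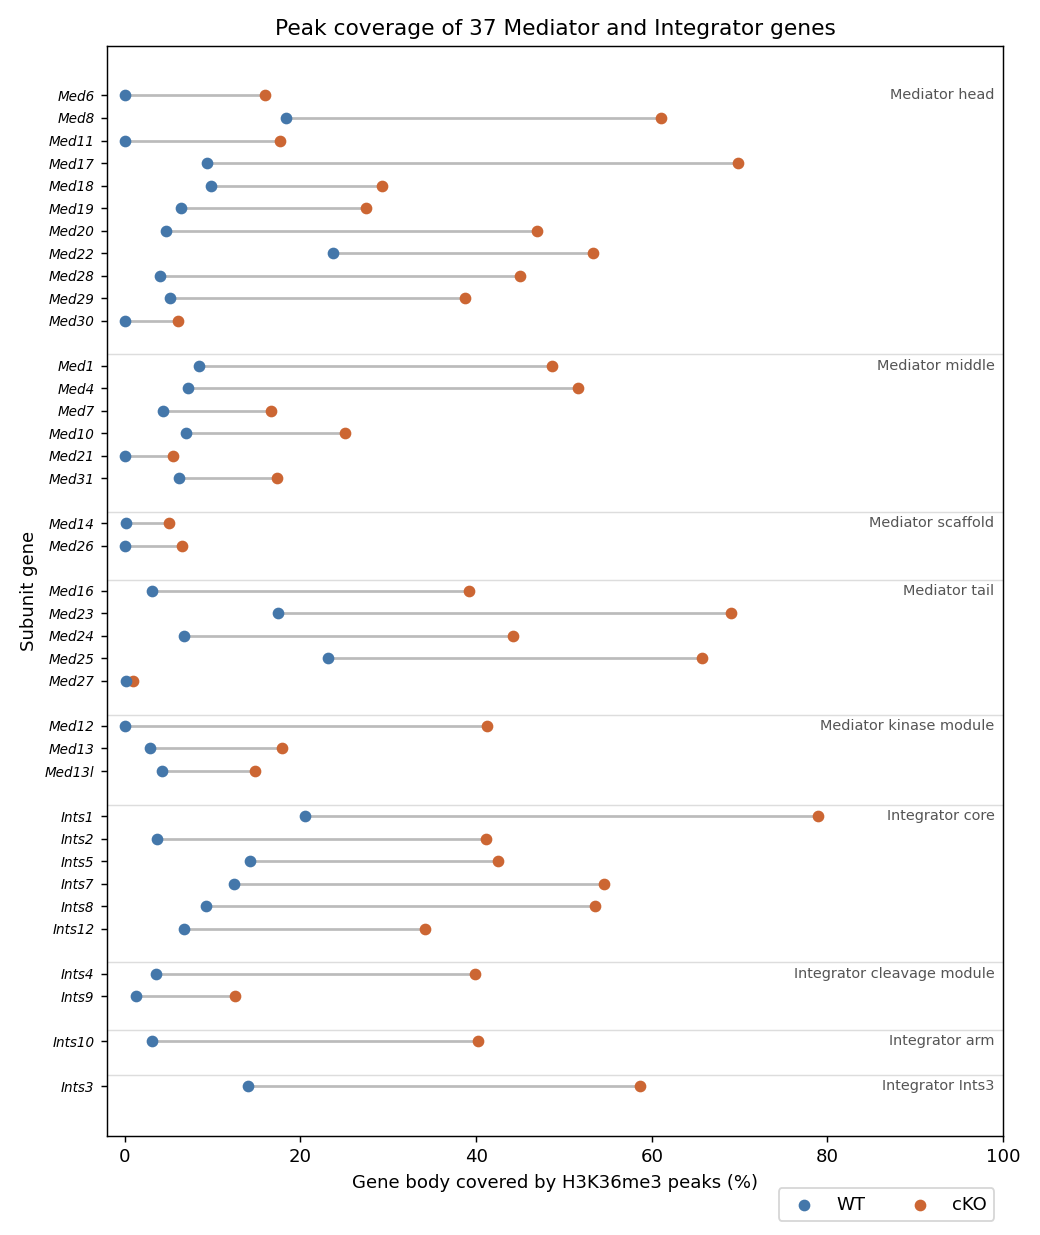
Share of each gene body inside H3K36me3 peaks in WT (blue) and cKO (orange), 1 library each, for the 37 members by module. WT values lie between 0 and 23.7% and cKO values between 1.00 and 78.9%, the cKO value being the higher in every gene.

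The head of Mediator, which binds the polymerase and its initiation factors, was encoded by 11 members, with a median coverage of 5.12% in WT and 38.7% in cKO. Med17, a central head subunit, lay on chromosome 9 (15260351 to 15279906, minus strand). It had 7 peaks of 1830 bp in WT and 10 of 13643 bp in cKO, and its coverage of 9.36% and 69.8% was the largest difference among the members, 60.4 points. Its peaks began 2972 bp from the gene start in WT and 2300 bp in cKO. The 250 bases before that start, which lay in no peak of either list, are shown because they hold the core of the ETS transcription factor motif (CCGGAAG, searched on both strands), in capitals, on the minus strand at chr9:15279907-15280156 of GRCm38.p6, from RefSeq.

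Med17: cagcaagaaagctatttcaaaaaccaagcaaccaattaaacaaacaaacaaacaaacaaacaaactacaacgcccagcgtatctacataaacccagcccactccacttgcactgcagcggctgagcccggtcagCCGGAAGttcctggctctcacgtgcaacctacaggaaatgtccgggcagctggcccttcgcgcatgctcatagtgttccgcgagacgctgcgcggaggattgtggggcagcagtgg

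Med8 and Med22, also head subunits, had high coverage already in WT. Med8 (chromosome 4, 118409282 to 118415824) had 4 named peaks of 1353 bp in WT and 2 of 3997 bp in cKO, with 18.4% and 61.1% of its body covered. Med22 (chromosome 2, 26905267 to 26910642) had 1 peak of 168 bp in WT and 2 of 1170 bp in cKO, but its coverage, 23.7% and 53.3%, was the highest of any member in WT. Of its 3 WT body peaks 2 carried the name Surf6, and these count in coverage but not in its named length.

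Med6, Med11 and Med30 had no peak of any name over the body in WT. Med6 (chromosome 12, 81573557 to 81595008) had 5 named peaks of 1951 bp in cKO and a coverage of 15.9%. Med11, the shortest member at 1.81 kb (chromosome 11, 70451918 to 70453732), had 2 named peaks of 519 bp there, 1 of them over the body, which was covered to 17.6%. Med30 (chromosome 15, 52712445 to 52730431) had 3 peaks of 1095 bp and a coverage of 6.09%. The cKO coverage of all 3 was below the members' median.

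The other head genes, Med18, Med19, Med20, Med28 and Med29, were covered to between 4.06% and 9.78% in WT and between 27.4% and 47.0% in cKO. The body of Med20 lies wholly inside the read-through gene Gm20517, and H3K36me3 has no strand, so their peaks cannot be told apart. Med28, picked out after its values were seen, had 1 WT peak of 368 bp and 7 cKO peaks of 5222 bp. Its strongest peak ranked above 98.9% of the WT list and 99.9% of the cKO list by the authors' -log10 q-value.

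The middle of Mediator, which lies between head and tail, was encoded by 6 members, with median coverage of 6.57% in WT and 21.2% in cKO. Med1, the subunit that binds many nuclear receptors, had the largest difference in summed length here. It lies on chromosome 11 (98152154 to 98193313) and had 9 peaks of 2071 bp in WT and 25 of 15258 bp in cKO, with coverage of 8.48% and 48.7%. Med4, named after its values were seen, was covered to 7.24% and 51.6%.

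Med21 and Med10, both small core subunits of the middle, had no named WT peak. Med21 (chromosome 6, 146642579 to 146650600) had no WT peak over its body, and its single named cKO peak of 196 bp was the shortest sum of any member with a peak in cKO. Med10 (chromosome 13, 69802348 to 69816102) had 2 named cKO peaks of 650 bp. It had 1 WT peak over the body that carried the name Gm26819, so its coverage was 6.96% in WT and 25.0% in cKO. Absence of a name in WT was thus no absence of a peak for Med10. Med7 and Med31 reached 16.7% and 17.3% in cKO from 4.41% and 6.18% in WT.

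Med14, the backbone that joins the modules, and Med26, which links Mediator to elongation factors, were among the least covered members. Med14 lies on the X chromosome (12675368 to 12762594) and had 1 WT peak of 152 bp and 12 cKO peaks of 3116 bp, with a coverage of 0.174% and 5.01%. Med26 (chromosome 8, 72494555 to 72548310) had no WT peak over its body. Its 6 cKO body peaks covered 6.49% and carried the names Gm17435 and Gm26282.

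The tail, the part that many activators bind, was encoded by 5 members and held some of the most and the least covered genes. Med23, a target of signalling-dependent activators, lies on chromosome 10 (24869986 to 24913529). It had 9 named peaks of 2881 bp in WT and 17 of 12919 bp in cKO, and coverage of 17.4% and 69.0%. Its strongest peak was the strongest of any member in both libraries, with a -log10 q-value of 39.6 in WT (807 bp) and 63.9 in cKO (2581 bp), values that rank peaks only within their own list. The file headers state that q would not be computed, so the origin of the q column is unclear. The WT peak lay inside the cKO one.

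Med25, the subunit bound by several viral and cellular activators, lies on chromosome 7 (44876765 to 44892705). It had 7 peaks of 2216 bp in WT and 6 of 5390 bp in cKO, and coverage of 23.1% and 65.7%. Its WT coverage was next to that of Med22 among the members. Med27, another tail subunit, is a 178 kb gene on chromosome 2 (29346810 to 29524790) with 1 WT peak of 196 bp and 2 cKO peaks of 1775 bp. All lay near its start, the first at 4380 bp in WT and 3077 bp in cKO, and its coverage of 0.110% and 0.997% was the lowest of any member in cKO. Med16 and Med24 had 39.2% and 44.2% in cKO, against 3.12% and 6.78% in WT.

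The kinase module, in which Med12 and Med13 hold the kinase Cdk8 or Cdk19 with cyclin C, was encoded by 3 members. Med12, which activates the kinase, lies on the X chromosome (101274091 to 101298934) and had no WT peak of any name over its body. In cKO it had 15 named peaks of 9272 bp and coverage of 41.2%, the longest sum among the members without a named WT peak.

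Med12 and Med14 are the X-linked members, and X-linked peaks differed more between the libraries than autosomal ones throughout. The X chromosome held 138 peaks in WT and 1146 in cKO, 8.30 times as many, against 2.58 times on the autosomes. Named peaks of the X-linked members numbered 1 and 27, and those of the autosomal members 150 and 352. The labels do not give the sex of the embryos, and its part in these values was not tested.

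Med13l, a paralog of Med13, the subunit that ties the kinase module to Mediator, lies on chromosome 5 (118560330 to 118765438) and is the longest member at 205.1 kb. It had the longest WT sum, 27 peaks of 8625 bp, and also the longest cKO sum, 24 peaks of 30573 bp. Its coverage was nevertheless 4.21% and 14.8%, since its peaks began 161.4 kb from the start in WT and 121.8 kb in cKO. It also held the longest cKO peak of any member, 5542 bp at chr5:118746515-118752056, which overlapped 5 WT peaks. Med13 itself, named after its values were seen, had 10 peaks of 2645 bp and 34 of 15725 bp.

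Integrator's core and scaffold were encoded by 6 members, whose median coverage was 10.8% in WT and 48.0% in cKO. Ints1, the largest scaffold subunit, is a gene of 24.4 kb on chromosome 5 (139751282 to 139775702, minus strand). It had the highest cKO coverage of any member, 78.9%, and 20.5% in WT. By name its sums were among the shorter ones, with 1 WT peak of 526 bp and 2 cKO peaks of 979 bp, a ratio of 1.86. Of the 12 peaks over its body in each library, 10 in WT and 9 in cKO carried the name of the microRNA gene mmu-mir-7037.

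Ints2, another core subunit, lies on chromosome 11 (86210681 to 86257609, minus strand) and was picked out after its values were seen, for its neighbour Med13. It had 6 peaks of 1727 bp in WT and 29 of 17920 bp in cKO, with coverage of 3.68% and 41.2%. The 250 bases before the starts that the promoter table gives for Ints1 and Ints2 lay in no peak of either list. These starts differ from the ends of the gene spans, so 24 bases (Ints1) and 15 bases (Ints2) of the windows lie inside the spans. The windows are shown from RefSeq for GRCm38.p6, minus strand, because they hold the ETS core as its reverse complement (Ints1, chr5:139775679-139775928) and the palindrome that NRF1 binds (Ints2, chr11:86257595-86257844), each in capitals.

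Ints1: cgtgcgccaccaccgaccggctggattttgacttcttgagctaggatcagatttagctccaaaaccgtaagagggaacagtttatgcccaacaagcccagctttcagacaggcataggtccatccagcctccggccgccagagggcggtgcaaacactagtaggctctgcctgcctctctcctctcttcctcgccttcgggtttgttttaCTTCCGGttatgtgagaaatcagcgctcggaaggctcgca

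Ints2: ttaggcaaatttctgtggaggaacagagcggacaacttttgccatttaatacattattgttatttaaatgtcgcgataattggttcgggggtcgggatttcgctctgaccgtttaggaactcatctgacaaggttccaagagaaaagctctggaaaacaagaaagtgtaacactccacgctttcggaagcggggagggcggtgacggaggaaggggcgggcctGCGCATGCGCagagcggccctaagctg

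Ints8, a subunit that bridges to the phosphatase PP2A, lies on chromosome 4 (11199158 to 11254265) and had the largest difference in summed length of all members. It had 14 peaks of 5089 bp in WT and 39 of 28376 bp in cKO, with coverage of 9.23% and 53.5%. It also held the longest WT peak, 1273 bp at chr4:11212458-11213730. Its body shares 10.2% of its bases with Ccne2, and over its other bases the WT coverage was 10.3%. Ints5, of 4.90 kb on chromosome 19 (8892987 to 8897890), had 1 named peak in each library, of 157 and 263 bp. This was the smallest difference in length in the module, but the named cKO peak lay outside the body. Coverage of Ints5 was 14.3% and 42.5%. Of its 3 WT body peaks 2 were named for its neighbour Ganab, as was its 1 cKO body peak. Ints7 and Ints12 had coverage of 12.4% and 6.76% in WT and 54.5% and 34.2% in cKO.

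Ints4 and Ints9 form the cleavage module with the RNA endonuclease Ints11. Ints4 (chromosome 7, 97480951 to 97541398) had no named WT peak and 10 of 4504 bp in cKO, but 9 WT and 38 cKO peaks lay over its body. The name Gm24412 was on all 9 of the WT peaks and on 28 of the cKO peaks, and coverage was 3.51% and 39.9%. So Ints4, like Med10, was without a WT name and not without a WT peak. Ints9 (chromosome 14, 64950045 to 65039835) had 4 peaks of 1027 bp and 14 of 6439 bp, with coverage of 1.31% and 12.5%, the lowest of the Ints members in both libraries.

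Ints10, of the arm of Integrator, lies on chromosome 8 (68793929 to 68829410). It had 2 peaks of 827 bp in WT and 19 of 10387 bp in cKO, with coverage of 3.11% and 40.3%. Ints3, which also serves the single-stranded DNA-binding complex SOSS, lies on chromosome 3 (90391380 to 90433636). It had 2 peaks of 481 bp and 13 of 6450 bp, while 18 WT and 19 cKO peaks lay over its body and covered 14.1% and 58.7%. Of these, 16 in WT and 6 in cKO carried the name of its neighbour Slc27a3, so its ratio of named length, 13.4, was far above its ratio of coverage, 4.18.

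Names and positions thus gave different counts. Over the bodies of the members, 70 of 216 WT peaks (32.4%) and 117 of 484 cKO peaks (24.2%) carried another gene's name, against 34.4% in both libraries for all protein-coding genes. A named peak lay outside the body in 5 of 151 cases in WT and 12 of 379 in cKO. Of the 7 members named in cKO alone, 5 also had no WT peak over the body, and Med10 and Ints4 had one.

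**Figure D3:**
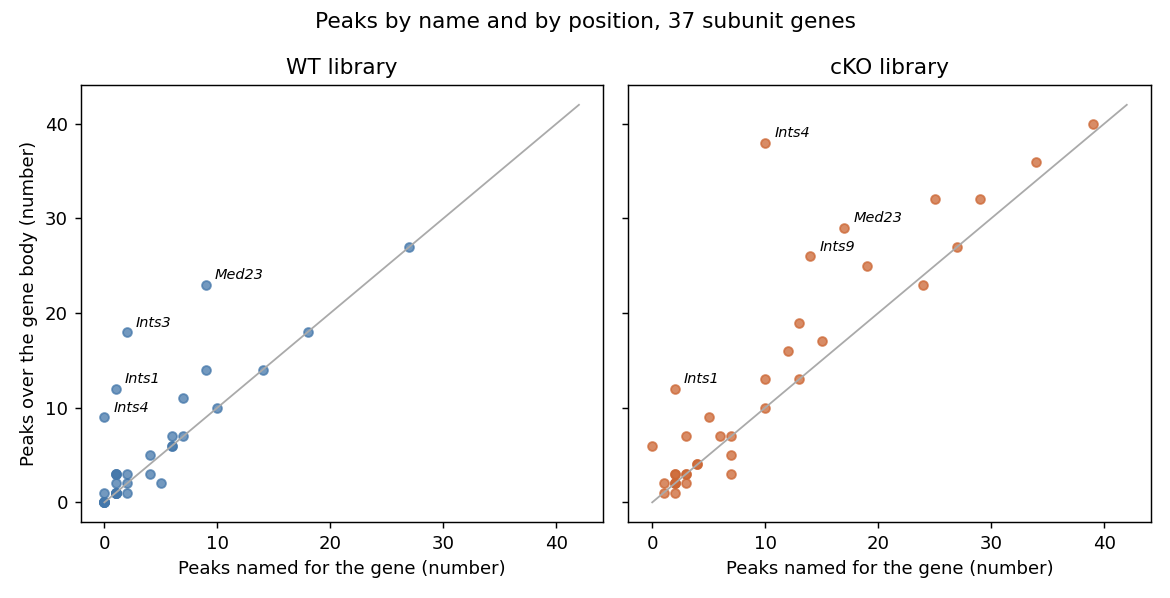
Number of peaks with the member's name (horizontal) against number of peaks over its body (vertical), 1 point per member, with the line of equal numbers. Points far above the line are genes whose peaks carry other names: Ints4 has 10 named and 38 body peaks in cKO, and Ints3 has 2 and 18 in WT.

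The same holds for subunit genes that no peak named by the symbol used here. Med15, a tail subunit that binds activators, had 7 WT and 24 cKO peaks over its body, all with other names, and coverage of 2.49% and 24.9%. Ints6 had 0.536% and 8.65%, Med9 none and 15.3%, and the X-linked Ints6l, which the annotation calls Ddx26b, none and 0.871%. Med12l, a paralog of Med12, had no peak in either library. Members of Integrator under older names had a similar range: Ints11 (Cpsf3l) 8.41% and 43.5%, Ints13 (Asun) 5.04% and 30.1%, and Ints14 (Vwa9) 11.3% and 57.7%. Together with the members this made 45 genes with a Med or Ints symbol in the reference. Of these, 36 had a peak over the body in WT and 44 in cKO. Cdk8, Cdk19 and Ccnc of the kinase module were not among them.

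Along the gene, peaks lay away from the start and towards the 3′ end. Bodies of 28 members with a known strand, at least 5 kb long and with a peak in both libraries, were split into 10 equal bins, numbered from the 5′ end. Mean coverage of bin 1 was 0.0993% in WT and 5.07% in cKO, and that of bin 9 was 15.4% and 66.2%. In bin 10 it was 8.11% and 55.1%. Bins 6 to 10 together were more covered than bins 1 to 5 in 23 of 28 members in WT (82.1%) and 25 of 28 in cKO (89.3%), and in 80.6% and 88.2% of all 5140 such genes. Over all of these genes bin 1 had 0.510% and 3.12% and bin 9 had 13.8% and 50.4%, the same order.

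**Figure D4:**
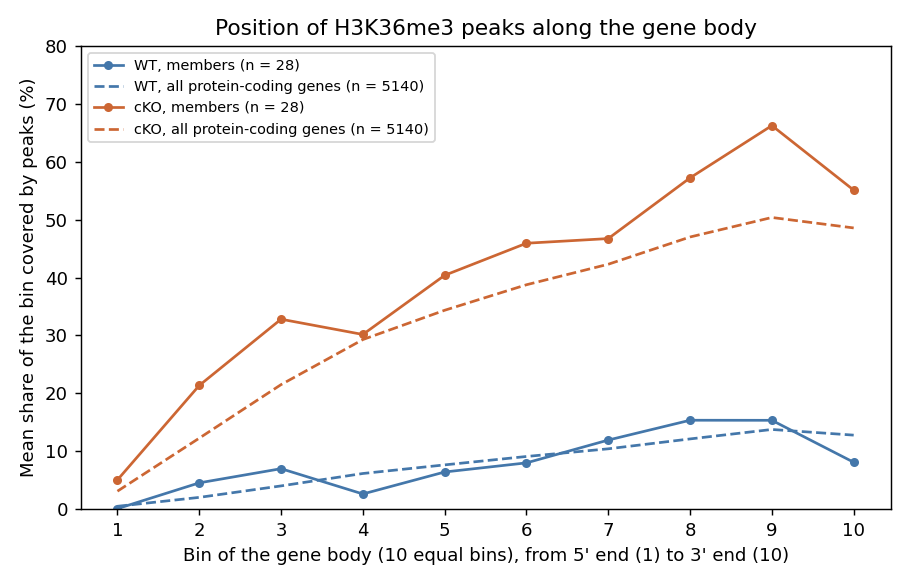
Mean coverage (%) of 10 equal bins of the gene body, from the 5′ end (1) to the 3′ end (10), in WT (blue) and cKO (orange) for 28 members (solid) and 5140 protein-coding genes (dashed). Means for the members are lowest in bin 1, 0.0993% and 5.07%, and reach 15.4% and 66.2% in bin 9.

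The first peak from the start was closer to it in cKO in 28 of the 29 members with a strand and a peak in both libraries. Of all 5504 such protein-coding genes 93.7% had it closer in cKO. The median distance was 5.73 kb in WT and 3.08 kb in cKO for the members, and 8.90 and 4.73 kb for all. The exception was Med7, at 3605 bp in WT and 4053 bp in cKO, and its single WT peak was 1 of the 3 WT member peaks that no cKO peak overlapped. The nearest first peak of any member lay 1881 bp from the start in WT (Med29) and 1266 bp in cKO (Med23). No first peak of a member was within 1 kb of the start, in 29 genes in WT and 35 in cKO, and of all protein-coding genes with a peak 1.33% and 2.72% had one there. At the other end, the last peak stopped a median of 1.90 kb before the gene end in WT and 0.211 kb in cKO.

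No peak of either list overlapped any of the 32 promoter windows that RefSeq gave for 29 of the members, from 250 bases before the start to 50 after. Of all 32851 windows, 0.338% overlapped a WT peak and 1.26% a cKO peak. The members' windows were rich in CG dinucleotides, with a median of 20 against 7 for all windows. The ETS core was in 9 of 32 (28.1%, against 8.86% of all), the NRF1 palindrome in 1 (3.12% against 0.971%) and the TATA box letters TATAAA in 3 (9.38% against 13.6%). These are matches of letters on either strand, and they show no binding. All windows come from 27025 genes with or without a peak, while the rule gave every member a named peak. Windows of named genes alone were not compared, so the CG and motif values are not read as particular to the members.

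The authors' annotation nevertheless put 8 WT and 25 cKO peaks of the members in its class promoter-TSS. None of the 8 in WT, nor of the 24 in cKO with a known strand, lay within 1 kb of the start of its gene, and the nearest were 7.07 and 6.43 kb away. Introns held 55.6% of the members' peaks in WT (95% interval 47.3 to 63.7) and 65.4% in cKO (60.4 to 70.2). Exons held 25.8% (19.1 to 33.6) and 12.9% (9.72 to 16.7), and ends of transcripts 13.2% (8.28 to 19.7) and 15.0% (11.6 to 19.0). Over all named genes, introns held 50.9% in WT and 64.0% in cKO, and exons 23.3% and 16.1%. Ends of transcripts held 17.9% and 14.3% over all genes. Promoter-TSS peaks made up 5.30% (2.31 to 10.2) and 6.60% (4.31 to 9.58) for the members and 8.01% and 5.59% over all genes. In both classes the cKO share was the higher for the members and the lower over all genes. Each all-gene share lay inside the members' interval, so nothing is read from that contrast. The intervals given for the classes treat peaks as independent, although many share a gene, so they make no comparison between the libraries.

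Peaks of the members coincided between the genotypes wherever WT had one. Of 151 WT peaks 148 (98.0%, interval 94.3 to 99.6) overlapped a cKO peak by at least 1 bp, and the others belonged to Med17, Ints12 and Med7. Of 379 cKO peaks 106 (28.0%, interval 23.5 to 32.8) overlapped a WT peak. Over all named genes these shares were 96.5% and 25.6%. The members' cKO peaks that overlapped a WT peak had a median length of 997 bp, and those that did not 373 bp. Over all named genes these medians were 1017 and 358 bp. The cKO list thus held nearly all WT sites of the members, wider, and many short peaks beside them, as it did over all named genes.

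Ints2 and Med13 stand next to each other on chromosome 11, both on the minus strand, with 9.42 kb between them, and so show a gene of each complex in 1 picture. Neither list had a peak in that gap, which runs from the 3′ end of Med13 to the start of Ints2. Beyond the 3′ end of Ints2, in the 9.47 kb up to Brip1, each list had 4 peaks, covering 1.39 kb in WT and 5.75 kb in cKO. The first peak of Ints2 lay 8671 bp from its start in WT and 3292 bp in cKO, and that of Med13 lay 2307 and 2274 bp from its start.

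**Figure D5:**
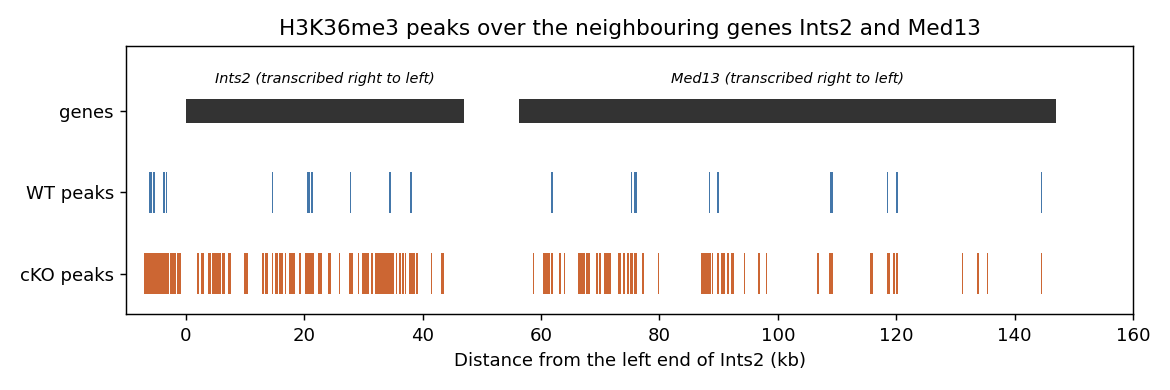
Position of H3K36me3 peaks over Ints2 and Med13, in kb from the left end of Ints2, with genes (top), WT peaks (blue) and cKO peaks (orange) drawn to scale. The gap of 9.42 kb between the genes holds no peak in either library, and each library has 4 peaks in the 9.47 kb left of Ints2.

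A list of 20 genes held further subunits that the rule misses and proteins that work with these complexes. Of the 20, 19 were in the reference (Ints15 was not). Further subunits in the reference were Cdk8, Cdk19 and Ccnc, and Ints11, Ints13 and Ints14. Ints11, Ints13 and Ints14 are also among the 45 genes above. Of the 19, a peak lay over the body of 17 in WT and 18 in cKO (31.3% and 43.7% of all protein-coding genes). Their median coverage was 5.40% and 30.3%. Coverage was at least 10 points higher in cKO in 16 of 19, all of at least 5 kb. Among all protein-coding genes of that length 32.6% passed the same limit, and 75.3% of those with a WT peak over the body. Ppp2r1a, the scaffold of the phosphatase that Integrator recruits, had 26.8% and 69.0%, and Supt5, a subunit of the elongation factor DSIF, 30.2% and 66.8%. The kinases Cdk8 and Cdk19 had 1.91% and 0.174% in WT and 15.0% and 1.98% in cKO, and their cyclin Ccnc 1.12% and 6.68%. The subunits of NELF, which holds the paused polymerase, lay between 4.91% (Nelfa) and 19.6% (Nelfe) in WT and between 32.9% (Nelfa) and 62.7% (Nelfb) in cKO. Nabp1 had no peak in either library.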

How the data were processed

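H3K36me3 ChIP-seq of forebrain at embryonic day 13 was deposited for 1 WT and 1 cKO library, each with an input. The submitters' processing notes name Bowtie2 2.2.9, FastQC, bedtools and the build mm10. Narrow peaks were called for each ChIP library against its input with MACS at a p cutoff of 1.00e-05, per the file headers, which give version 2.1.1.20160309 where the notes give 2.1.0. The deposited lists give positions in bp, the pileup signal, the fold enrichment ratio over background, and the -log10 p-value and q-value, as the authors' MACS run made them. The file headers say that q was left uncalculated, yet the q column holds positive values, and how these were made is unknown. The p-value, q-value and fold served only to rank or filter peaks within a list. A second table by the authors gave each peak a class and a gene name, by a tool that the sources used here do not name.

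Peaks not classed as intergenic were counted and their lengths summed per gene name. Coverage used RefSeq bodies of GRCm38.p6 (the chromosomes of mm10) and merged peaks. Strand came from the promoter table or, where that had none, from the order of intron and exon numbers, which gave the same strand in 17 of 18 members that had both. Med8 and Ints5 had no strand. Interval sums were tested on simulated data. The modelled fragment, 152 bp in WT against 185 bp in cKO per the file headers, also sets how wide peaks are. Tag size was 150 bp in both, so the WT fragment was close to the tag length. What this did to the WT list was not tested. Intervals are exact Clopper-Pearson at 95%. Python 3.11.15, pandas 2.3.3, numpy 2.4.6, scipy 1.17.1 and matplotlib 3.10.9 were used. Genes described in full were, per module, those with the largest and smallest difference in summed length, those with no peak in 1 library, the 5 with the highest coverage per library and those with the longest peak. The members and lists were chosen with earlier results of these data known. Alternatives were a -log10 q-value of at least 5, a fold of at least 4, the cKO list brought to the peak number or covered length of WT, peaks within 3 kb joined, peaks over the body, promoter-TSS peaks left out and ratios of 1.5 and 4.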

Additional observations from a re-analysis of the deposited data

How the results depend on the processing

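Without replicates, no value carries an error between animals, and depth was alike in the immunoprecipitated libraries. Their inputs held 38500353 (WT) and 35026817 (cKO) tags. With the cKO list at the WT covered length, 13 members had a named cKO peak and 4 had a sum at least 2 times as long in cKO. Over these 13 alone, the cKO median sum was 2407 bp and the median ratio 1.55. Members left without a cKO peak are not in these medians. The cKO median coverage over all 37 members was 0%. Summed length was then higher in cKO in 10 members and lower in 19. Of these 19, the genes described by the naming rule were Ints8 (-5089 bp), Ints9 (-1027), Med13l (-991), Ints1 (-526), Ints3 (-481), Ints10 (-420), Med27 (-196), Med22 (-168), Ints5 (-157) and Med14 (-152), and the others were Ints7 (-5984), Med13 (-2645), Ints2 (-1727), Ints12 (-1294), Med19 (-704), Med16 (-444), Med29 (-381), Med20 (-261) and Med7 (-255), all as cKO minus WT. At the WT number of peaks the median ratio was 3.71 over the 27 members with a peak in both lists. The cKO median coverage was 21.9%, with 30 members higher and 2 lower by summed length. Joining peaks within 3 kb gave median sums of 1958 and 8275 bp and median coverage of 9.23% and 63.6%. Under the -log10 q-value and fold limits and without promoter-TSS peaks, 34 to 36 members were higher and 0 lower by summed length. By coverage, Ints5 was lower in cKO at a fold of at least 4 (11.1% in WT, 0% in cKO), and Med7 at the WT number of peaks (4.41% and 0%). Chosen after seeing the data were coverage without bases shared with another coding gene, with medians of 5.95% and 39.6%, and peaks whose class names a transcript of the member, found for 24 members in WT and 31 in cKO. The transcript could be matched to a gene for only 56.7% of all non-intergenic peaks in WT and 52.4% in cKO. Peaks without a match are not in these counts of members. No paired analysis was possible because each genotype had 1 ChIP library and the labels give no replicate numbers.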
